A study of Homo sapiens with 13 samples.

Results

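The 9 genes described here belong to the transforming growth factor beta (TGF-beta) pathway: the ligands TGFB1, TGFB2 and TGFB3, the receptors TGFBR1, TGFBR2 and TGFBR3, the signal carrier SMAD3, the inhibitor SMAD7 and the matrix gene TGFBI. They were taken by name from the 19974 protein-coding genes on chromosomes 1 to 22 and X. Each was followed through its RefSeq GRCh38 span plus 50 kb to both sides, called its window. The 9 windows covered 1.61 Mb. The peak lists came from CUT&RUN, which cuts and releases the DNA next to an antibody-bound protein or histone mark, in mildly crosslinked PANC1 cells, a human pancreatic ductal carcinoma line. The cells were a stable line expressing BRG1, with "BRG oe" in the titles, and the libraries with a peak list all came from that line, so no cells at another BRG1 level were compared. There were 2 libraries each for BRG1, SMARCC1, NRF2, H3K27ac, H3K4me1 and H3K4me3, 12 in all. The labels do not say whether replicates came from separate cultures, so the spread between them may be technical.

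TGF-beta ligands bind the receptor kinase TGFBR2, often helped by the co-receptor TGFBR3 (betaglycan), and TGFBR2 then activates the kinase TGFBR1. TGFBR1 phosphorylates SMAD3, which enters the nucleus with SMAD4 and binds DNA, while SMAD7 blocks the receptor and marks it for degradation. TGFBI is a secreted matrix protein named for its induction by the ligand, and in pancreatic carcinoma the pathway is known both for restraining growth and for driving the change to a mesenchymal state. BRG1 (SMARCA4) is an ATPase that drives SWI/SNF chromatin remodelling, SMARCC1 is a core subunit of the same complexes, and NRF2 is the transcription factor of the antioxidant response. H3K4me3 marks active promoters, H3K4me1 marks enhancers, and H3K27ac marks active elements of both kinds.

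The libraries held 3213 and 6610 BRG1 peaks, 600 and 572 SMARCC1 peaks, 1538 and 919 NRF2 peaks, and between 17752 and 37283 peaks for each histone mark library. Read depth was not given, and where no peak is listed, a library may have been too shallow to show it. No SMARCC1 peak had a −log10 q above 0 in either library. A site, or region for a histone mark, was a merged stretch holding at least 1 peak of each replicate. This gave 2040 BRG1, 169 SMARCC1 and 383 NRF2 sites, and 24239 H3K27ac, 23540 H3K4me1 and 15639 H3K4me3 regions. Fold enrichment is the authors' deposited value for each peak, and the labels do not say whether it is relative to IgG. In these bulk libraries, more cells carrying a mark cannot be told apart from more mark per cell. An H3K4me3 region lay within 1000 bp of a gene end for 5 of 7 ductal and carcinoma markers (KRT8, KRT18, KRT19, EPCAM and SOX9, with KRT7 and CDH1 lacking one) and for 3 of 3 mesenchymal markers (VIM, ZEB1 and FN1). It lay there for none of the acinar, endocrine, leukocyte, endothelial and hepatocyte markers.

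The promoters of the genes differed in letters as well as in marks, and those that carry the contrasts described below are printed here from RefSeq (GRCh38.p14), 5′ to 3′ on the strand of the gene. The first set has capitals on GC boxes (GGGCGG on either strand). It is shown for TGFB1 and SMAD3, the ligand and the SMAD gene with the highest H3K4me3 folds near their own starts.
TGFB1, minus strand, chr19:41353923-41354172: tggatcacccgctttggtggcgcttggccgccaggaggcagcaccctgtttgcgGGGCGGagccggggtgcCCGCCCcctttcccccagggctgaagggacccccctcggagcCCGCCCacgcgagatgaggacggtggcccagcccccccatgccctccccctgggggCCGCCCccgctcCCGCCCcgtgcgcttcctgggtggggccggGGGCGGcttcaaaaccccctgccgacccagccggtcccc
SMAD3, plus strand, chr15:67065352-67065601: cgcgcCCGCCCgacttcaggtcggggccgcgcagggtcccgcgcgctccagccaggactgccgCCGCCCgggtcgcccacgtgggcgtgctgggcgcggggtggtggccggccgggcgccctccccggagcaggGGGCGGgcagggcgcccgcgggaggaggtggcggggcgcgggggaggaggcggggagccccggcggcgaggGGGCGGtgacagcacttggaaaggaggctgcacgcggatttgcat
The 250 bases before the TGFB1 start held 6 GC boxes and 76.8% G or C. Those before the SMAD3 start held 4 GC boxes and 80.8% G or C. The median over 22156 promoters of coding genes was 62% G or C, and 53.7% of those promoters held a GC box. A TGFBR1 start at position 99105814 also had 6, in a region with H3K4me3 folds of 5.47 and 7.88. TGFBI had 3 before its start, TGFBR3 had 2, and TGFBR2 had 2 before its start at position 30606601. A link between GC boxes and H3K4me3 was not tested.

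The second set has capitals on TATAAA and on TGACGT, the core of the cAMP response element, which reads ACGTCA where it lies on the opposite strand. It is shown because these starts carry a TATA sequence in place of GC boxes.
TGFB2, plus strand, chr1:218345086-218345335: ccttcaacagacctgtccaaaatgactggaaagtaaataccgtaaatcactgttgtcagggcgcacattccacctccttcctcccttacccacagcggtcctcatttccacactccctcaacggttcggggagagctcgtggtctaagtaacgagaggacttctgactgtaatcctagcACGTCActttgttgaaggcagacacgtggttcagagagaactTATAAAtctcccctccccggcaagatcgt
TGFB3, minus strand, chr14:75982016-75982045: gagACGTCAtgggagggaggTATAAAattt
SMAD7, minus strand, chr18:48949349-48949378: agaggcgtgcTATAAAggctggaaggtctc
In TGFB2 the TATAAA began 29 bases before the start and the TGACGT match 71 bases before it. In TGFB3 they began 30 and 47 bases before the start at position 75981995, and in SMAD7 the TATAAA began 35 bases before the start at position 48949333. TATAAA was present in 9.0% of all 22156 promoters and TGACGT in 7.98%. Of the other motifs searched on both strands, GTCTAGAC, the palindromic SMAD element, was in no promoter of the 9 genes and in 0.208% of all promoters. CAGAC, a shorter SMAD element, was in 37.3% of all promoters, among them 2 matches before the TGFB2 start and none before the TGFB1 start. TGANTCA was in 5.36% of all promoters and TGANNNNGC, which can overlap it and TGACGT, in 35.0%. A match describes the letters in this stretch and not binding.

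BRG1 was found in both libraries beside 2 of the 9 genes, TGFB2 and TGFBI, while 9.32% of all coding genes had such a site in windows made the same way. There were 3 sites, or 1.87 per Mb of window, against 0.793 per Mb over all coding windows. Each of the 3 lay outside the gene span, and the nearest coding gene was TGFB2 or TGFBI in each case. Within 1000 bp of a start or 5′ end, 0 of the 9 genes had a BRG1 site, against 0.664% of 15812 coding genes with a listed start. The same count was 0 for SMARCC1, against 0.291%, and 0 for NRF2, against 0.202%. In the whole windows SMARCC1 had no site of both libraries, against 1.6% of coding genes, and NRF2 had none, against 1.95%. Counting each peak of replicate 1 alone gave 6 BRG1 peaks beside 3 genes, against 14.1% of coding genes, and each peak of replicate 2 alone gave 12 beside 5 genes, against 26.3%.

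**Figure D1:**
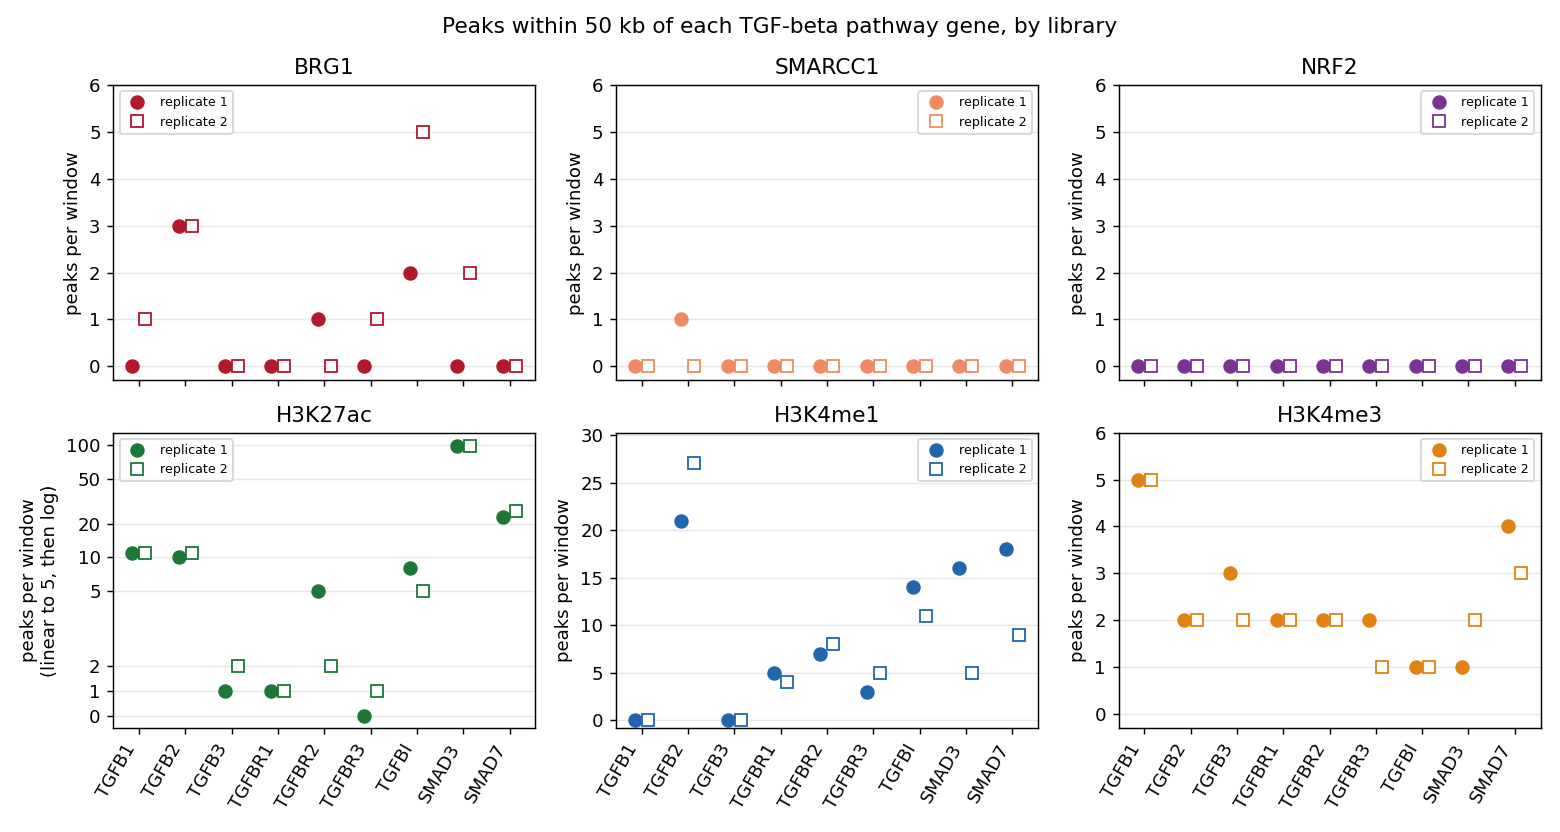
Number of peaks in each gene's window (span plus 50 kb), 1 panel per target, with filled circles for replicate 1 and open squares for replicate 2. BRG1 had peaks in both libraries at TGFB2 and TGFBI, NRF2 had none at any of the 9 genes, and SMAD3 had 98 H3K27ac peaks in each library (that axis is linear up to 5 and logarithmic above).

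TGFB2 (chr1:218345336-218444619), a ligand of the family, had the strongest BRG1 site of the 9 windows. At chr1:218463447-218463703, the fold enrichment of BRG1 was 7.08 in replicate 1 and 7.70 in replicate 2 (7.39 ± 0.44, SD, n = 2). This placed it at rank 5 of the 2040 BRG1 sites by mean fold. Its peaks were higher than 99.7% and 99.8% of all BRG1 peaks of their libraries, with −log10 q of 5.61 and 6.30. The site lay 18828 bp beyond the 3′ end of TGFB2, no RefSeq gene of any kind covers it, and TGFB2 was the nearest coding gene. It sat inside an H3K27ac region at chr1:218463184-218463999 with folds of 4.97 and 3.37. The nearest H3K4me1 region was 3437 bp away and the nearest H3K4me3 region was back in the gene, 113031 bp away, so of the 3 marks measured H3K27ac alone overlapped the site.

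Other BRG1 peaks of the TGFB2 window appeared in 1 library each and did not overlap between libraries. Replicate 1 had peaks with folds of 3.34 and 3.85, both overlapping an H3K4me1 region, and replicate 2 had peaks with folds of 2.98 and 2.85 that overlapped no mark. The median BRG1 peak had a fold of 3.38 in replicate 1 and 3.46 in replicate 2, so the peak with a fold of 3.85 stood above the middle of its list, higher than 72.5% of its peaks, and the other 3 stood below the middle. TGFB2 also had the 1 SMARCC1 peak of the 9 windows, seen in replicate 1 alone with a fold of 3.18, where 8.62% of coding genes had a SMARCC1 peak of either library. It lay inside the gene, 52910 bp from its start, where H3K27ac and H3K4me1 regions overlapped, and no BRG1 peak was there.

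TGFBI (chr5:136028988-136063818) had both of its BRG1 sites upstream of the gene. The nearer site, at chr5:136017050-136017465, had folds of 4.12 in replicate 1 and 4.69 in replicate 2 (4.40 ± 0.40, SD, n = 2). It lay 11523 bp before the gene, ranked 441 among the 2040 sites, and overlapped none of the 3 marks. Its −log10 q was 0.959 and 1.9. The nearest H3K27ac region, the one at the TGFBI start, was 11235 bp away. The farther site, at chr5:135993980-135994297, had folds of 3.88 and 3.94 (3.91 ± 0.039, SD, n = 2). It lay 34691 bp before the gene, ranked 835, and overlapped an H3K4me1 region with folds of 3.12 and 3.01. Its −log10 q was 0 and 0.626. At a −log10 q of at least 1.3 in both libraries neither TGFBI site was kept, which left TGFB2 as the 1 gene of the 9 with a BRG1 site, against 0.946% of coding genes. BRG1 replicate 2 listed 5 peaks in this window and replicate 1 listed 2, and the 7 peaks were all upstream of the gene, with folds between 2.09 and 4.69. No BRG1 peak lay inside the gene, where most of its H3K27ac and H3K4me1 regions were.

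**Figure D2:**
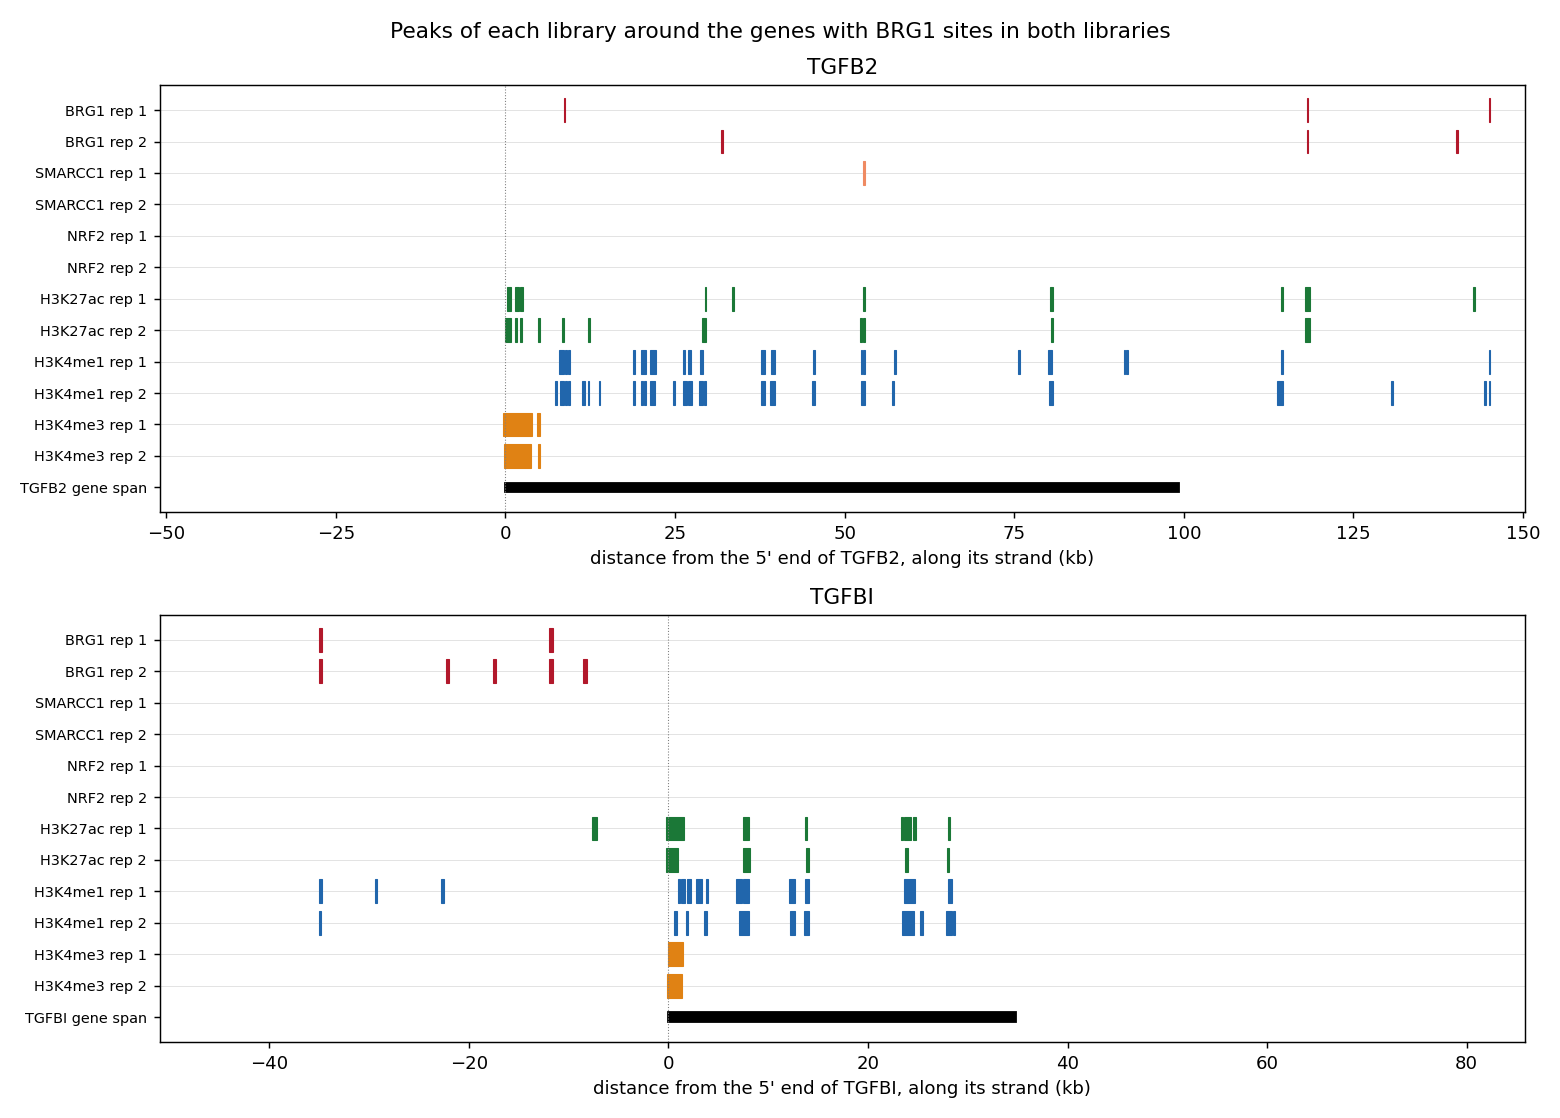
Peaks of the 12 libraries around TGFB2 and TGFBI, as boxes to scale, against distance in kb from the 5′ end of the gene along its strand, with the gene span in black. The BRG1 site of both libraries at TGFB2 lies beyond the gene over H3K27ac peaks, and the BRG1 peaks of TGFBI lie upstream of the gene.

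In 4 more windows BRG1 had peaks in 1 library alone. With either library counted, 6 of the 9 genes had a BRG1 peak, against 29.2% of coding genes. TGFBR2, the receptor kinase that binds the ligand, had 1 peak in replicate 1 with a fold of 5.67, higher than 98.4% of the peaks of that library. It lay 8958 bp upstream of the gene at chr3:30597158-30597398, overlapped no mark, and had no counterpart in replicate 2. Its nearest coding gene was LOC105377015, 7001 bp away. The other single peaks came from replicate 2. Beside TGFB1 a peak with a fold of 3.54 lay in an H3K27ac region, 146 bp from the gene CCDC97. Downstream of TGFBR3 a peak with a fold of 3.23 lay in an H3K4me1 region. In the SMAD3 window a peak with a fold of 2.65 lay in an H3K27ac region upstream of the gene, and another with a fold of 2.62 lay inside the gene, 837 bp from the nearest H3K27ac region. TGFB3, TGFBR1 and SMAD7 had no BRG1 peak in either library.

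Marks around the sites are few in number. Of the 3 BRG1 sites in the windows, 2 (66.7%) met a histone mark, against 972 (47.6%) of all 2040 BRG1 sites. Of the 3, 1 met H3K27ac, 1 met H3K4me1 and none met H3K4me3. With each peak of replicate 2 counted alone, 5 of 12 met a mark, and with replicate 1 alone, 4 of 6. The same share over all BRG1 peaks of each library was not counted, so these single-library counts have no background to be read against. Over the whole series 90.5% of the 169 SMARCC1 sites and 59.0% of the 383 NRF2 sites met a mark, and the windows held none of either. NRF2 had no peak in any of the 9 windows in replicate 1 or in replicate 2, where 10.4% of all coding genes had an NRF2 peak of either library.

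**Figure D3:**
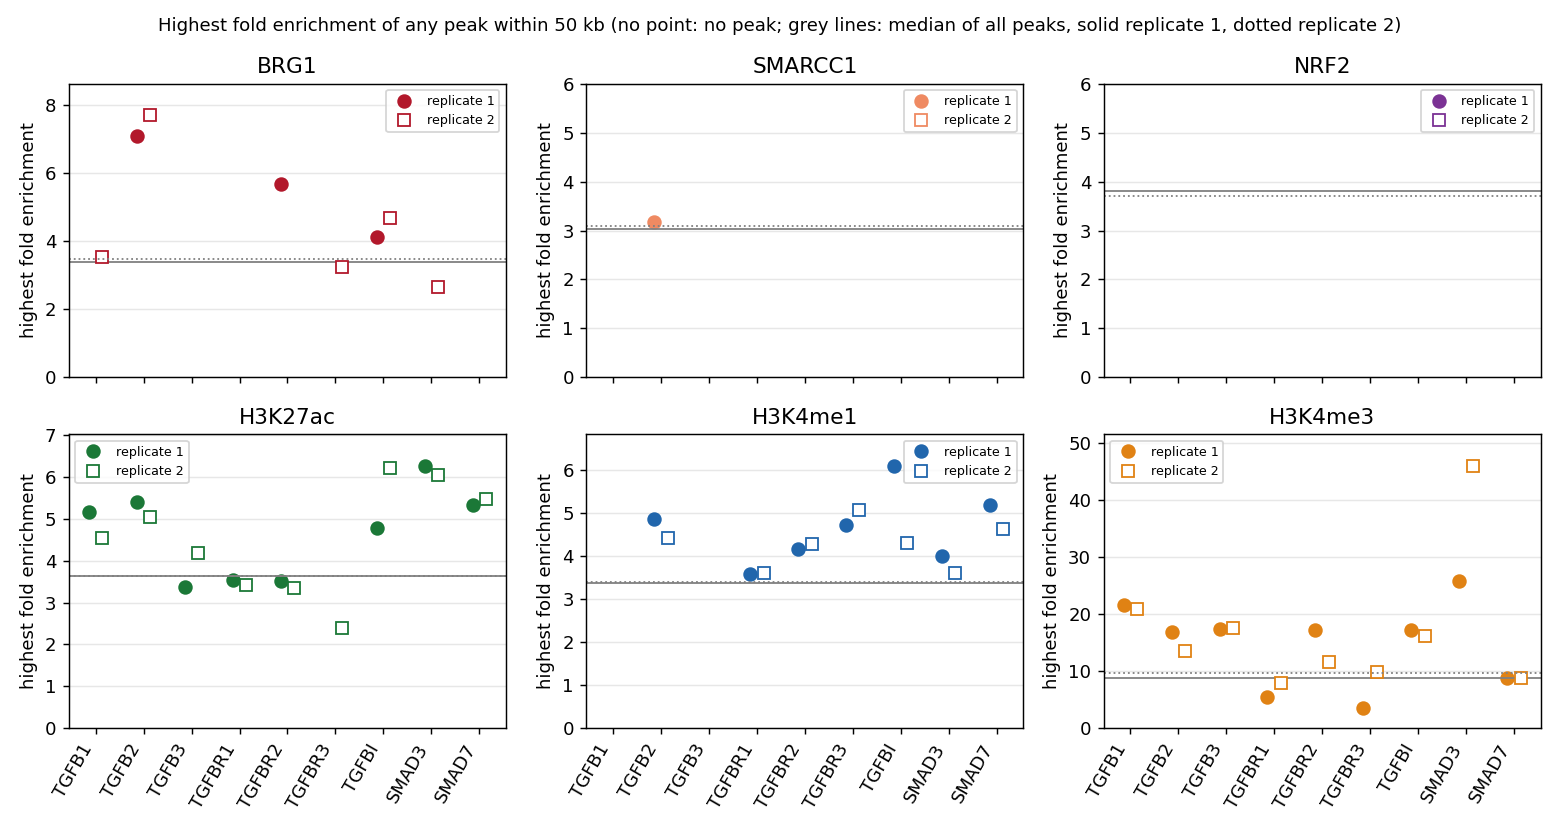
Highest fold enrichment of a peak in each gene's window, 1 panel per target, with filled circles for replicate 1, open squares for replicate 2 and grey lines at the median of all peaks of each library. TGFB2 had the highest BRG1 folds (7.08 and 7.70), SMAD3 had the highest H3K4me3 folds (25.8 and 46.0), and an empty place means that the library listed no peak there.

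Near a start the 9 genes all carried H3K4me3. A region of both libraries lay within 1000 bp of a listed start or the 5′ end in 9 of 9 genes, against 63% of 15812 coding genes. H3K27ac was there in 6 of the 9 (TGFB1, TGFB2, TGFBR2, TGFBI, SMAD3 and SMAD7), against 48.3%, and the same 6 had both marks, against 47.5%. It was not found in both libraries at the starts of TGFB3, TGFBR1 and TGFBR3. H3K4me1 was there in SMAD3 and SMAD7, against 5.69%, in both genes next to a start inside the gene and not at the 5′ end. The H3K4me3 region of TGFBR3 covered its listed start, which lies 19851 bp inside the gene span. Those of TGFB3 and SMAD3 lay near listed starts but covered none of them. In the windows as a whole, 9 genes had an H3K4me3 region, against 78.2% of coding genes, 7 had H3K27ac, against 71.6%, and 7 had H3K4me1, against 52.6%.

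Among the ligands, TGFB1 (chr19:41330323-41353922, minus strand) had a strong and wide start. Its H3K4me3 region had folds of 21.6 and 20.9 and a width of 3434 bp, which is wider than 92.0% of the 7671 coding genes with a region over their 5′ end, where the median was 1943 bp. The region covered 236 of the 250 promoter bases printed above. TGFB1 had no H3K4me1 peak in either library. Its window had 11 and 11 H3K27ac peaks in 9 regions, but 6 other coding genes share this stretch, and TGFB1 was the nearest coding gene for 1 of the 9 regions.

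TGFB2 had a start of the same kind and a gene body of another. Its H3K4me3 region had folds of 16.8 and 13.6 and covered all 250 promoter bases. The width of 4221 bp was greater than in 97.5% of the 7671 coding genes with a region over their 5′ end. Beyond the start, H3K4me1 was the mark with the most regions. The window had 21 peaks in replicate 1 and 27 in replicate 2, in 16 regions, which put it at rank 160 of 19974 coding genes. Of those 16, 14 lay inside the gene and 13 met neither of the other marks. These calls were mostly weak. At a −log10 q of at least 1.3 in both libraries, no H3K4me1 region inside the gene was kept. The region at chr1:218425347-218425984, for example, had 1.14 in replicate 1 and 1.78 in replicate 2. The region kept lay 45636 bp beyond the gene, with −log10 q of 2.39 in replicate 1 and 1.59 in replicate 2. H3K27ac had 10 and 11 peaks in 7 regions, the highest near the start at 5.40 and 5.04. The region under the BRG1 site was next by the mean of both libraries and in replicate 1, and in replicate 2, at 3.37, it came after regions at 5.04, 4.03 and 3.39.

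TGFB3 (chr14:75958097-75983011, minus strand) had few peaks of its own. The H3K4me3 region nearest to its starts had folds of 3.71 and 5.90, was 463 bp wide, and covered 177 of the 250 bases before the start with TATAAA. A taller H3K4me3 region in the window, with folds of 17.4 and 17.6, belonged by distance to IFT43. The single H3K27ac region of the window overlapped that region and not the TGFB3 start, and there was no H3K4me1 peak in either library. The ligands thus differed in their marks, with both H3K27ac and H3K4me1 at TGFB2, H3K27ac without H3K4me1 at TGFB1, and neither nearest to TGFB3.

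The receptor genes had 0 or 1 H3K27ac region each. The median coding gene had 2, and 28.4% of coding genes had none, so such counts were common. TGFBR1 (chr9:99103647-99154192), the kinase that phosphorylates SMAD3, had 1 H3K27ac peak in each library, with folds of 3.53 and 3.43, and they did not overlap. The nearest H3K27ac region of both libraries was 115485 bp from the closest of its listed starts. Its H3K4me3 was low, with folds of 5.47 and 7.88, below the library medians of 8.72 and 9.65. Its 2 H3K4me1 regions lay upstream, nearest to COL15A1.

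TGFBR2 (chr3:30606356-30694142) had the strongest start of the receptor genes. Its H3K4me3 folds were 17.2 and 11.5 (14.4 ± 4.0, SD, n = 2), and its 1 H3K27ac region, with folds of 3.27 and 2.62, lay inside that H3K4me3 stretch. Both regions also overlapped a second coding gene, LOC105377015, so they cannot be given to TGFBR2 alone. H3K27ac peaks were listed 5 times in replicate 1 and 2 times in replicate 2, so most of the first library's peaks had no counterpart. Its 3 H3K4me1 regions lay inside the gene and met no other mark. TGFBR3 (chr1:91680343-91906002, minus strand) had no H3K27ac peak in replicate 1 and 1 in replicate 2, with a fold of 2.4. Its H3K4me3 folds of 3.46 and 9.84 differed between libraries more than those of the other receptor genes (6.65 ± 4.5, SD, n = 2). Its H3K4me1 was closer between libraries, with folds of 4.72 and 5.07 (4.90 ± 0.25, SD, n = 2) at a region inside the gene.

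TGFBI, the matrix gene, had marks over its own span as well as the BRG1 sites upstream. Its H3K4me3 region had folds of 17.2 and 16.2 and a width of 1695 bp, narrower than the median of 1943 bp. H3K27ac had 8 and 5 peaks in 5 regions, the highest at the start with folds of 4.79 and 6.22. H3K4me1 had 14 and 11 peaks in 8 regions, 7 of them inside the gene. Of the 5 H3K27ac regions, 4 met an H3K4me1 region and the other met the H3K4me3 region of the start, so none stood alone.

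SMAD3 (chr15:67065602-67195169), the carrier of the signal to the nucleus, had more H3K27ac than any other coding gene by count. Its window held 98 H3K27ac peaks in replicate 1 and 98 in replicate 2, rank 1 of 19974 coding genes in each library, where the median gene had 3. These formed 76 regions, again rank 1, ahead of TRIO with 62 and HOXB3 with 56. The regions covered 65.5 kb, which is 28.5% of the window and 47.9% of the gene span. The window is long, and by regions per length (33.1 per 100 kb) SMAD3 was at rank 14. At a −log10 p of at least 5 SMAD3 kept 28 regions and was at rank 8, and at a −log10 q of at least 1.3 it had 47 and was at rank 1.

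The regions were close together and ordinary in height. The median gap between neighbours was 379 bp, and 53 of 75 gaps were at most 1000 bp. Their mean folds ran between 2.41 and 6.08, with a median of 3.84, near the median of 3.86 over all 24239 H3K27ac regions. Of the 76 regions, 68 lay inside the gene, 7 upstream and 1 downstream. Joining regions at most 12.5 kb apart gave a domain at chr15:67064201-67196849, 132.6 kb long with 71 regions, which covers the whole gene. Among 11549 joined domains it was at rank 1 by number of regions, by bases covered and by length.

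The SMAD3 regions were mostly H3K27ac without the other marks. Of the 76, 70 met neither H3K4me1 nor H3K4me3, 3 met H3K4me1 and 3 met H3K4me3. Over the 9 windows, 88 of 118 H3K27ac regions (74.6%) stood alone, against 25.5% of all H3K27ac regions, of which 54.8% met H3K4me3. Without SMAD3 the share was 18 of 42 (42.9%), and the density of H3K27ac regions was 30.5 per Mb, where all 9 windows gave 73.4 per Mb and all coding windows 12.1 per Mb. H3K4me1 in the SMAD3 window differed between libraries, with 16 peaks in replicate 1 and 5 in replicate 2, and 3 regions in both. The median coding gene had 1 H3K4me1 peak in each library, and 75.6% of coding genes had fewer H3K4me1 regions than SMAD3. An H3K4me1 peak of 1 library alone did not count as a mark that was met. Over the 9 windows H3K4me1 had 43 regions of both libraries, with 84 peaks listed in replicate 1 and 69 in replicate 2. H3K4me3 of both libraries formed 1 region in the SMAD3 window, 4911 bp wide and beginning 6 bp inside the gene, with folds of 25.8 and 46.0 (35.9 ± 14, SD, n = 2). The region began just past the printed promoter and covered none of its 250 bases.

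**Figure D4:**
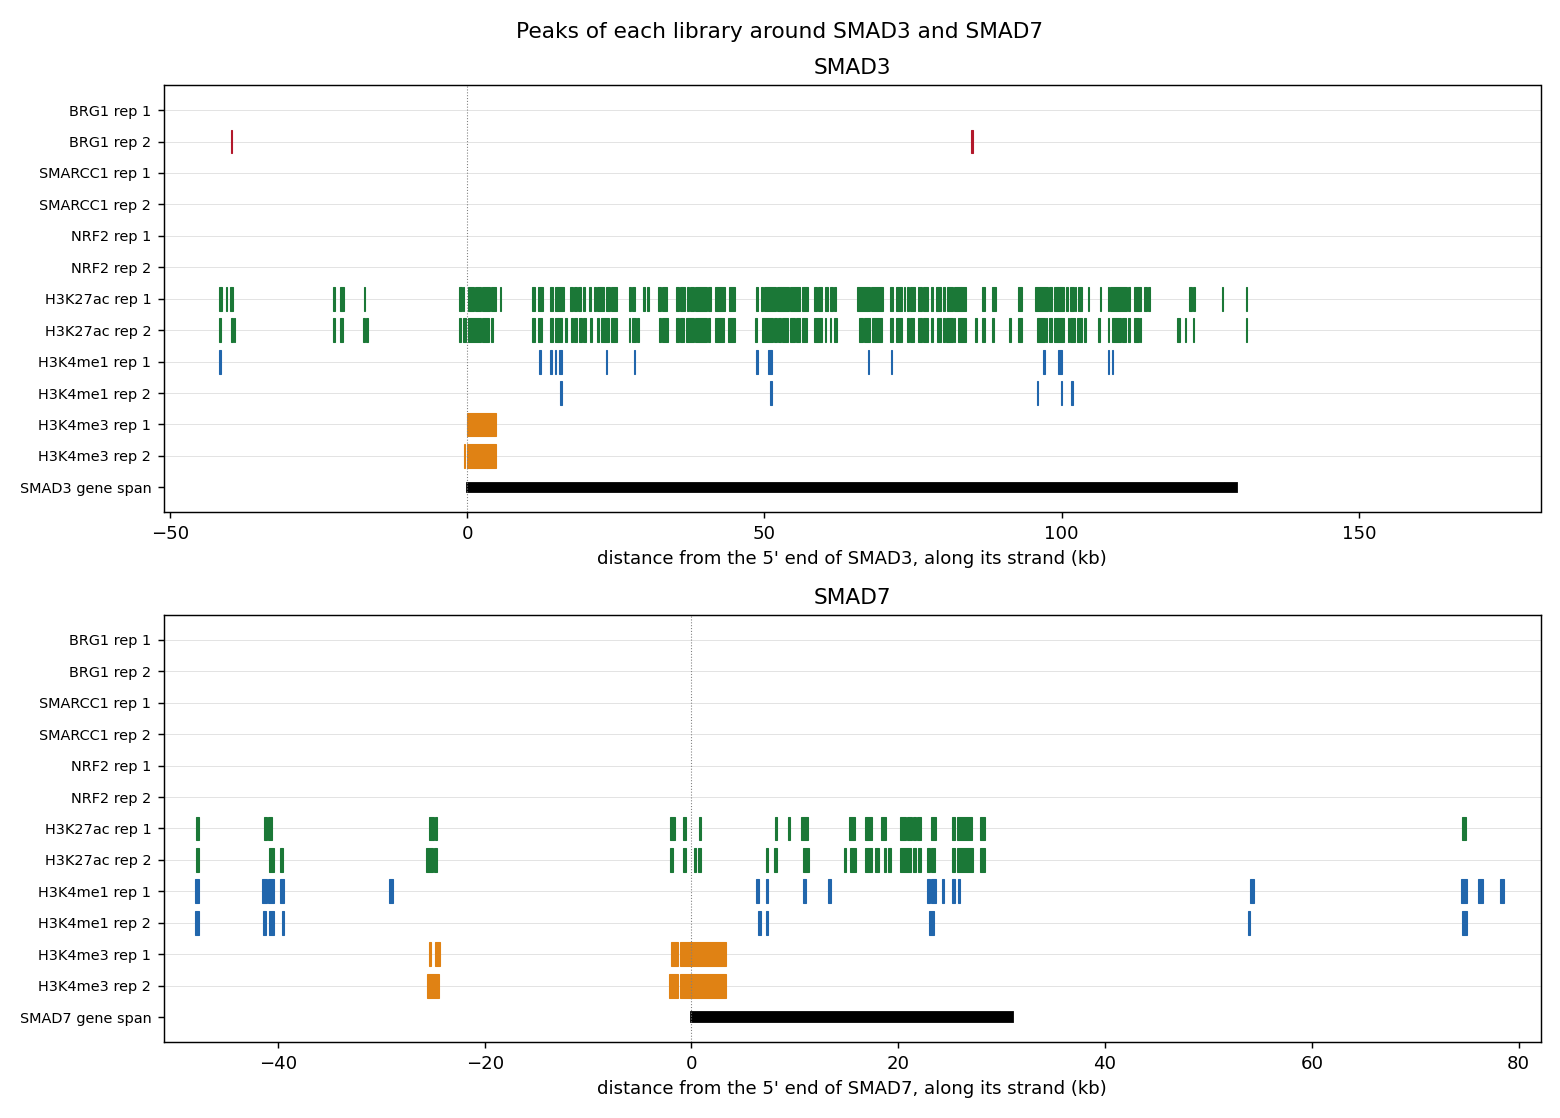
Peaks of the 12 libraries around SMAD3 and SMAD7, as boxes to scale, against distance in kb from the 5′ end of the gene along its strand, with the gene span in black. H3K27ac peaks run through the whole SMAD3 gene in both libraries, with fewer H3K4me1 peaks than H3K27ac peaks. SMAD7 has H3K27ac, H3K4me1 and H3K4me3 peaks and no peak of BRG1, SMARCC1 or NRF2.

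SMAD7 (chr18:48919853-48950965, minus strand), the inhibitor of the receptor, had all 3 marks in a window that holds no other coding gene. H3K27ac had 23 peaks in replicate 1 and 26 in replicate 2, in 19 regions, at rank 138 of 19974 coding genes. The highest region had folds of 5.29 and 5.47, 523 bp from the 5′ end. H3K4me1 had 18 and 9 peaks in 9 regions, the strongest upstream with folds of 5.19 and 4.64 over an H3K27ac region. Its H3K4me3 region at the start was wide and of middle height, with folds of 8.86 and 8.86, near the library medians. The width of 4446 bp was greater than in 98.1% of the 7671 coding genes with a region over their 5′ end. The SMAD7 region covered all of the bases before the start with TATAAA. Of the 19 H3K27ac regions, 11 stood alone, 3 met H3K4me1 and 5 met H3K4me3.

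**Figure D5:**
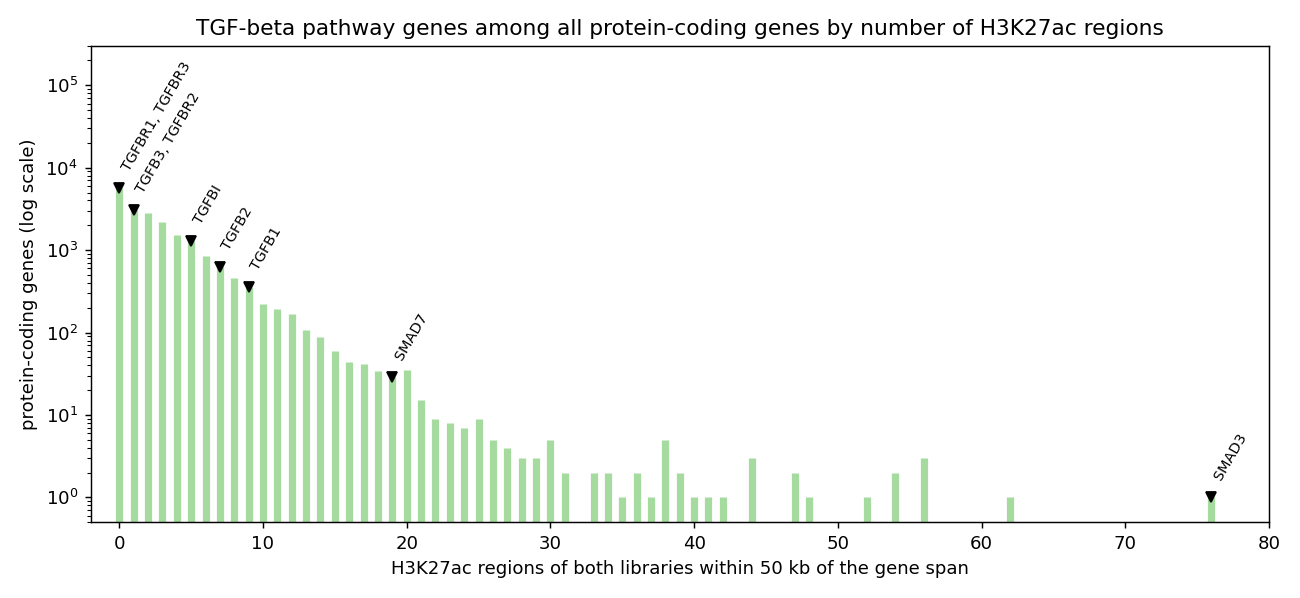
Number of protein-coding genes (bars, log scale) by number of H3K27ac regions of both libraries within 50 kb of the gene span, with the 9 TGF-beta pathway genes marked. TGFBR1 and TGFBR3 stood at 0, TGFB3 and TGFBR2 at 1, SMAD7 at 19 and SMAD3 alone at 76.

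The other genes of the pathway were counted from 5 lists with 48 members in windows made the same way. BRG1 had a site beside 7 of the 48 (14.6%), against 9.32% of all coding genes, and SMARCC1 and NRF2 had none. Of the 10 genes listed as inhibitors 4 had a BRG1 site, of the 16 known targets 2 and of the 6 other receptors 1. The 5 other signal carriers and the 11 genes of ligand processing and latency had none. The strongest was in SMURF2, a ubiquitin ligase that acts with SMAD7 on the receptor, with folds of 4.35 and 8.04 (6.19 ± 2.6, SD, n = 2) at a site inside the gene that met no mark. ACVR1, a receptor kinase of the BMP branch, had folds of 4.38 and 3.76 at a site in H3K27ac and H3K4me1. USP15 had folds of 3.25 and 4.20 at a site of the same kind. It is a deubiquitinase that acts on the receptor and, though listed with the inhibitors, does not inhibit the pathway. ITGB1, an integrin chain, had 3.19 and 3.86 upstream in H3K27ac, and TGIF1, a nuclear repressor of SMAD signalling, had 2.59 and 3.86 upstream in H3K27ac. TGM2, a transglutaminase, had 3.82 and 3.21 downstream with no mark. H3K27ac was beside 41 of the 48 genes, against 71.6% of all coding genes, H3K4me1 beside 38, against 52.6%, and H3K4me3 beside 45, against 78.2%. These lists were chosen with results of these data known, and their counts are a description.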

How the data were processed

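CUT&RUN was done on mildly crosslinked PANC1 cells, per the labels' protocols, and groups follow the target and replicate number in the titles. MACS2 2.2.7.1, Picard 2.23.9, Bowtie2 2.4.1, SAMtools 1.9 and the GRCh38 build are named, per the submitters' processing notes, with no settings. Peaks were deposited library by library. The authors' deposited fold enrichment of each peak was used as a value, its deposited −log10 p and −log10 q as thresholds in alternatives, and its deposited score was not used. Depth is not given, and the IgG library is not used here.

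Peaks of both replicates overlapping by at least 1 bp were merged, and each site was given the highest fold in each library, averaged over both. Windows, start sites (starts with a promoter entry, plus gene 5′ ends) and promoter sequences came from RefSeq GRCh38.p14. Promoters were the 250 bases before a start, and for starts inside a gene span at most 30 bases are shown. Python 3.11.15, NumPy 2.4.6, pandas 2.3.3 and matplotlib 3.10.9 were used, and the interval code was tested on simulated data. No test was run: member counts stand beside the same share of all coding genes.

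The members, the gene lists and the rule for naming genes were chosen with earlier results of these data known. All 9 members and their factor sites are named, and of the other pathway genes those with a site, at most 6 per factor by mean fold. The alternatives were stricter thresholds, other windows, other overlap rules, either replicate, the nearest gene alone and each replicate left out.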

Additional observations from a re-analysis of the deposited data

How the results depend on the processing

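Of 132 alternative counts of sites and of genes with a site, 108 stayed within 1.5 times the reported count and 24 did not. NRF2 stayed at 0 sites under each. A count of 0 could not move under stricter or narrower settings, so the unmoved counts of NRF2 and SMARCC1 add little to the 108. The 3 BRG1 sites beside 2 genes became 1 site beside 1 gene (TGFB2) at a −log10 q of at least 1.3, against 0.946% of coding genes, and 0 beside 0 genes in the gene span with no flank (4.16%) or plus 10 kb (5.14%). Peaks of either replicate gave 15 BRG1 sites beside 6 genes, and leaving out a replicate gave 6 to 12 sites beside 3 to 5 genes. SMARCC1 went to 1 site beside 1 gene with peaks of either replicate, and to 0 to 1 site beside 0 to 1 gene with a replicate left out. At a −log10 p of at least 5, H3K27ac had 38 regions and H3K4me1 had 3 beside 3 genes, against 14.8% of coding genes. At a −log10 q of at least 1.3, H3K27ac had 66 and H3K4me1 had 4 beside 4 genes, against 17.7%. Peaks of either replicate gave 105 H3K4me1 regions, and leaving out a replicate gave 69 to 84. BRG1 sites that met a mark, 2 of 3 in the report, were 4 of 6 without replicate 2 and 5 of 12 without replicate 1. The share over all peaks of each library was not counted. For SMARCC1 they were 0 to 1. With factor and mark peaks both held to a −log10 p of at least 5, 0 BRG1 sites met a mark. The TGFB2 site itself was kept there, but its H3K27ac peaks had −log10 p of 5.95 and 4.33 and did not both pass. The rank of SMAD3 by H3K27ac regions, an alternative added after seeing the data, was 1 in each setting except a −log10 p of at least 5, where it was 8. Looser settings keep more peaks by construction; the cause of other moves was not tested. No paired analysis was possible because no result comes from a test, only from counts of sites.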

Other observations

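Of the other pathway genes, LTBP3, which holds the ligand in its latent form, had 21 H3K27ac regions in its window, more than 99.5% of coding genes have. It was followed by ID1 with 16 and CCN1 with 14, both known targets of the pathway. These 3 were chosen after their values were seen. Their regions were counted by window and not given to the nearest gene, and the LTBP3 window also held 7 H3K4me3 regions. None of the 3 had a site of BRG1, SMARCC1 or NRF2.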
